A study of Mus musculus with 3 samples.

Results

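Levels and 3′ ends of mature miRNAs were compared between 2 of the 3 liver libraries of the series, that of the decoy against miR-122 and that of its vector control. The animals were C57BL/6 mice, a common inbred strain, and all had received an AAV9 vector with a self-complementary genome (scAAV9). The vector carried no Tough Decoy (TuD) in the control (mock) and a TuD directed at miR-122 in the other group (TuD-miR-122, called the decoy library below), and liver RNA of 18 to 30 nt was collected after 4 weeks. The remaining library (TuD-let-7, called the let-7 decoy library) came from mice given the same vector with a TuD directed at let-7 and was used only as another control. With 1 library in each group, conditions could not be tested against each other, and the intervals below are for counting error only. The number of animals behind a library, the vector dose and the promoter of the decoy were not given in the sources used here. The mock vector also carried the scAAV9 genome, so the vector was common to both groups. With 1 library in each, an effect of the decoy cannot be told apart from other differences between the 2 libraries.

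All miRNAs were included, chosen by the reads alone: inserts were assigned to 398 distinct mature arms from the 1174 mouse precursors of the annotation. Mock held 3450317 reads, of which 78.5% were assigned to miRNAs, and the decoy library held 3681585, of which 72.0% were. Levels are given in RPM, reads scaled to a total of 1000000 miRNA reads from loci other than miR-122 and let-7 (non-target miRNAs). There were 1377461 such reads in mock, 1452346 in the decoy library and 487637 in the let-7 decoy library, so 3 reads, the limit that a count of 0 allows, stood for 2.18, 2.07 and 6.15 RPM. Of the 376 non-target arms detected, 225 had at least 100 reads over mock and the decoy library together and were compared. miR-122-5p, which defines hepatocytes among miRNAs, supplied 37.7% of mock's miRNA reads and 32.6% of those in the decoy library, so the liver label was met in both.

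A miRNA guides an Argonaute protein to target RNAs that pair with its seed, bases 2 to 8 from its 5′ end. miR-122 is the predominant miRNA of hepatocytes, where it keeps genes of cholesterol and lipid metabolism in check, and a nucleotidyl transferase, GLD-2, is known to add adenosine to its 3′ end. A TuD is a hairpin RNA that offers exposed sites to its miRNA. RNAs that pair with a miRNA along most of its length, and not only at the seed, are known to lead to the addition of nucleotides to its 3′ end (tailing) and to the loss of nucleotides from it (trimming).

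Of the 79 miRNAs whose sequences were sought, 69 matched a RefSeq entry (build GRCm38.p6). The sequences below, printed 5′ to 3′ with the seed in capitals, are those on which the differences in level turned. The 7 that open the list belong to the imprinted cluster between Dlk1 and Dio3, plus strand of chromosome 12: the 4 arms of the cluster with the most reads, the arm with the largest ratio among those compared, and a pair that shares 1 seed.
miR-136-5p: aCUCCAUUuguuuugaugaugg
miR-379-5p: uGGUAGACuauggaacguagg
miR-127-3p: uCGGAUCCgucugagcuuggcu
miR-541-5p: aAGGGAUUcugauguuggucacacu
miR-154-3p: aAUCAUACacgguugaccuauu
miR-379-3p: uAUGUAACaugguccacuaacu
miR-411-3p: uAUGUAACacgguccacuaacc
The next 5 are the other miRNAs above mock that RefSeq holds, known from the exocrine pancreas (miR-216a, miR-216b and miR-217) and from epithelia (miR-141 and miR-200c).
miR-216a-5p: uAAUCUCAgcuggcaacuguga
miR-216b-5p: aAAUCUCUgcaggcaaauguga
miR-217-5p: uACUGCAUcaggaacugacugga
miR-141-3p: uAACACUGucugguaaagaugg
miR-200c-3p: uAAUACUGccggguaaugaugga
The last 4 stood below mock. miR-206 is known from skeletal muscle, miR-205 and miR-31 from stratified epithelia, and miR-802 from liver.
miR-206-3p: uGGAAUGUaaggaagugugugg
miR-205-5p: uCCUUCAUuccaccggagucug
miR-31-5p: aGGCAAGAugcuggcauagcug
miR-802-3p: aCGGAGAGucuuugucacucag

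Reads were separated into a part that matched the precursor from the 5′ end and a remainder of at most 5 nt, called a tail. A read was called trimmed when the matching part was under 21 nt. A tail is thus any 3′ end that departs from the precursor, base-call errors included, and an added letter that happens to equal the next precursor letter is not seen as a tail.

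miR-122-5p had 1020044 reads in mock, 864036 in the decoy library and 976412 in the let-7 decoy library, or 740525, 594924 and 2002330 RPM. Relative to mock it stood at 0.803 in the decoy library, with a 95% counting interval of 0.801 to 0.806. With the let-7 decoy library as the control the same level came to 0.297. Among the 225 non-target miRNAs, 56 had a ratio to mock below 0.803. Of the 225, 113 had under 1000 reads over both libraries, so this rank does not show what is usual for so abundant a miRNA. The choice of control moved the level of miR-122-5p by more than 1.5 times. The passenger strand miR-122-3p, cut from the same precursor, had 7036 reads in mock and 10444 in the decoy library, a ratio of 1.41 (1.37 to 1.45). With starts allowed within 2 nt it had 14278 and 22695 reads, a ratio of 1.50 (1.47 to 1.53). The precursor gene Mir122 lies on chromosome 18 of GRCm38 (65248861 to 65248926, plus strand), within an exon annotated to the noncoding gene AC157910.3.

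The length that matched the precursor moved down by nearly 1 nt. Its mean over all miR-122-5p reads was 22.1 nt in mock, 22.1 nt in the let-7 decoy library and 21.3 nt in the decoy library. Reads with 23 matching nt made up 39.1% in mock and 13.6% in the decoy library, and their level was 0.280 of mock (0.278 to 0.282). Reads with 22 matching nt made up 42.0% and 37.4%, at 0.715 of mock. From 21 nt down the order turned: the level was 1.44 times mock at 21 nt, 6.68 times at 20 nt (6.58 to 6.79), 4.60 times at 19 nt, 3.01 times at 18 nt and 2.98 times at 17 nt. The trimmed share as a whole was 3.08% in mock (3.04 to 3.11) and 20.6% in the decoy library (20.5 to 20.7). Most of it was the 20-nt class, which held 14.7% of all miR-122-5p reads in the decoy library and 1.77% in mock. With the limit for trimming set below 20 nt, the difference was 4.58 percentage points in place of 17.5.

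**Figure D1:**
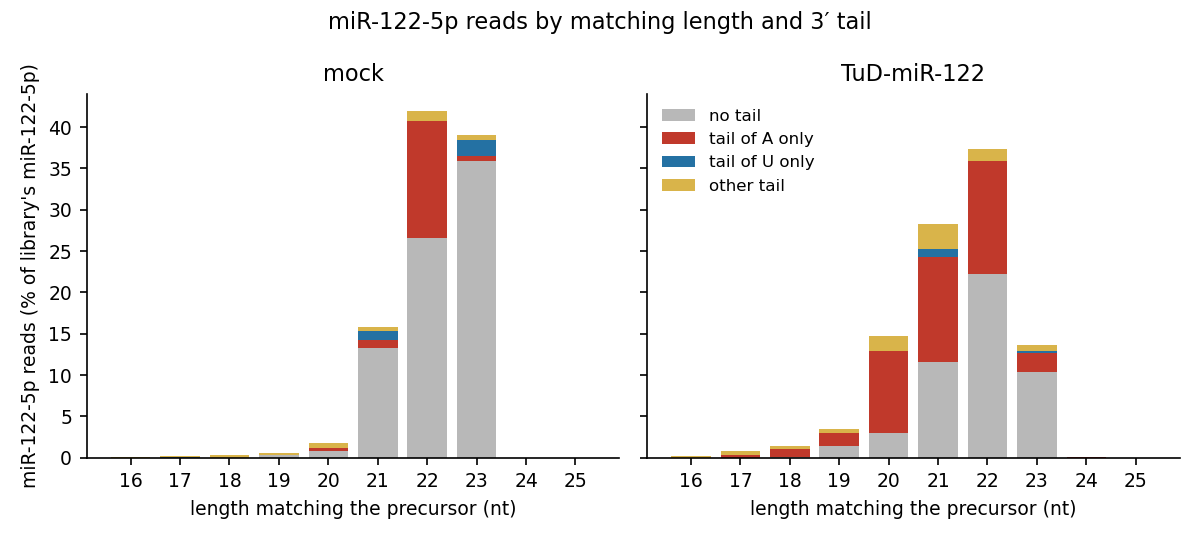
miR-122-5p reads of mock (left) and TuD-miR-122 (right) by the length that matched the precursor (x axis, nt), as a percentage of that library's miR-122-5p reads (y axis), with colours for the kind of tail. In mock the 22-nt and 23-nt classes hold 42.0% and 39.1% and A tails sit mainly on 22 nt, while in TuD-miR-122 the 20-nt and 21-nt classes grow to 14.7% and 28.3% and carry A tails as well.

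The largest upward difference among the kinds of tail was in those of A. Tails of A alone stood on 16.2% of miR-122-5p reads in mock (16.1 to 16.2) and on 41.6% in the decoy library (41.5 to 41.7). From 1 to 4 A the ratio to mock grew with the length of the tail. Reads with a single A were at 1.45 times mock, those with AA at 10.002 times (9.79 to 10.2), those with AAA at 18.4 times (17.4 to 19.5), and those with 4 A at 20.1 times (16.2 to 25.2, on 88 and 1867 reads). Reads with 5 A were at 5.43 times mock (3.27 to 9.52), on only 18 and 103 reads. The mean length of a pure A tail was 1.07 nt in mock and 1.43 nt in the decoy library. In the let-7 decoy library the shares were close to mock, with a single A on 17.04% of reads (15.2% in mock) and AA on 0.752% (0.874% in mock).

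Other letters did not follow the same course. Tails of U alone stood on 3.06% of reads in mock and 1.18% in the decoy library, and their level was 0.309 of mock (0.302 to 0.316). Tails of C alone were at 1.05 times mock and tails of G alone at 0.712. Mixed tails stood on 2.99% and 7.53%, and their ratios differed. AGA was at 19.2 times mock (16.7 to 22.3), AG at 9.02 times, AC at 6.75 times and AAU at 5.67 times. UA was at 2.28 times and AU, which also begins with A, at 1.53 times. A first A thus did not always go with a large ratio. An added U that equals the next precursor letter is not seen, so the U share covers only a part of the forms.

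The share with an A tail differed by form. In mock 34.0% of the reads with 22 matching nt carried an A tail, but only 5.45% of those with 21 nt and 18.7% of those with 20 nt. In the decoy library the same classes carried A on 36.7%, 44.7% and 67.7% of reads. The longer 23-nt class carried A on 1.67% of reads in mock and 17.5% in the decoy library, and the rare 24-nt class on 24.6% and 73.5%. Thus the A share was nearly alike in the 22-nt class and higher in the decoy library in the classes on both sides of it. Tails of at least 2 A stood on 1.20% of the 22-nt class in mock and 7.56% in the decoy library, and on 1.42% and 18.8% of the 21-nt class. Whole read lengths, tails included, differed less than matching lengths: the mean read length was 22.5 nt in mock and 22.2 nt in the decoy library. Reads with neither tail nor trimming made up 75.8% of miR-122-5p in mock, 44.2% in the decoy library and 74.9% in the let-7 decoy library.

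The opposite strand did not show differences of this size, as far as its tails could be seen. miR-122-3p carried A tails on 1.81% of reads in mock and 2.41% in the decoy library, and 41.2% and 35.4% of its reads were trimmed. Its mean matching length was 20.7 nt and 20.8 nt. Its reads with 19, 20 or 22 matching nt carried A tails on 0% in both libraries, those with 21 nt on 7.89% and 9.39%. An added A that equals the next precursor letter is counted as matching. These values thus cover only a part of the forms and cannot show whether A was added to this strand. The start of miR-122-5p was nearly the same in both libraries. In mock 1.39% of its reads and in the decoy library 1.41% began at another base, nearly all 1 nt later. Of miR-122-3p reads, 50.7% in mock and 54.0% in the decoy library began at another base, mostly 1 nt later (48.5% and 52.3%). Those reads are not part of its values above. This difference of 3.26 points was above the highest among the 74 non-target miRNAs, 2.76 points, but smaller in size than the lowest, -4.46 points.

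The 3′ ends of the other miRNAs served as the background of this measurement. Of the 74 non-target miRNAs that reached 1000 reads in mock and in the decoy library, 0 (0% of those compared) had an A share more than 5 points above mock and 2 (2.70%) had one more than 5 points below. For miR-122-5p the difference was 25.4 points. The median difference over the 74 was -0.22 points, and 49 of them were below mock and 25 above. The 4 largest upward differences in A share, all under 5 points, were those of miR-486-5p (2.74 points), an erythroid miRNA, miR-126a-5p (2.57), an endothelial one, miR-24-3p (1.79) and miR-27a-3p (1.68). The share with 2 or more A was at most 0.521 points above mock, in miR-23a-3p, against 13.2 points in miR-122-5p. Across the 74 miRNAs the A shares of the 2 libraries followed each other closely, with Pearson's r of 0.982 and Spearman's rho of 0.976. That is a description over miRNAs that share the same 2 libraries and are not independent replicates.

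Trimming gave the same picture. Of 71 non-target miRNAs that could be measured, 0 (0%) had a trimmed share more than 5 points above mock and 2 (2.82%) had one more than 5 points below, with a median difference of -0.24 points against 17.5 in miR-122-5p. The 0 did not hold in every setting: the largest upward difference was 6.68 points with a lower read minimum and 6.82 points with the let-7 decoy library as control. In mock against the decoy library, the largest differences upward were those of miR-223-3p, a myeloid miRNA (12.1% in mock, 15.6% in the decoy library), miR-24-3p (16.1% and 19.4%), miR-19a-3p (3.88% and 7.08%) and miR-19b-3p (4.22% and 7.31%). Mean matching length differed by between -0.25 and 0.12 nt over these miRNAs, with a median near 0, against -0.80 nt for miR-122-5p. For tails of U, 1 of 74 miRNAs (1.35%) was more than 5 points above mock and 2 (2.70%) were more than 5 points below. Against the let-7 decoy library the median trimmed difference of the non-target miRNAs was -4.80 points, so that library had more trimmed reads in general than either of the others.

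**Figure D2:**
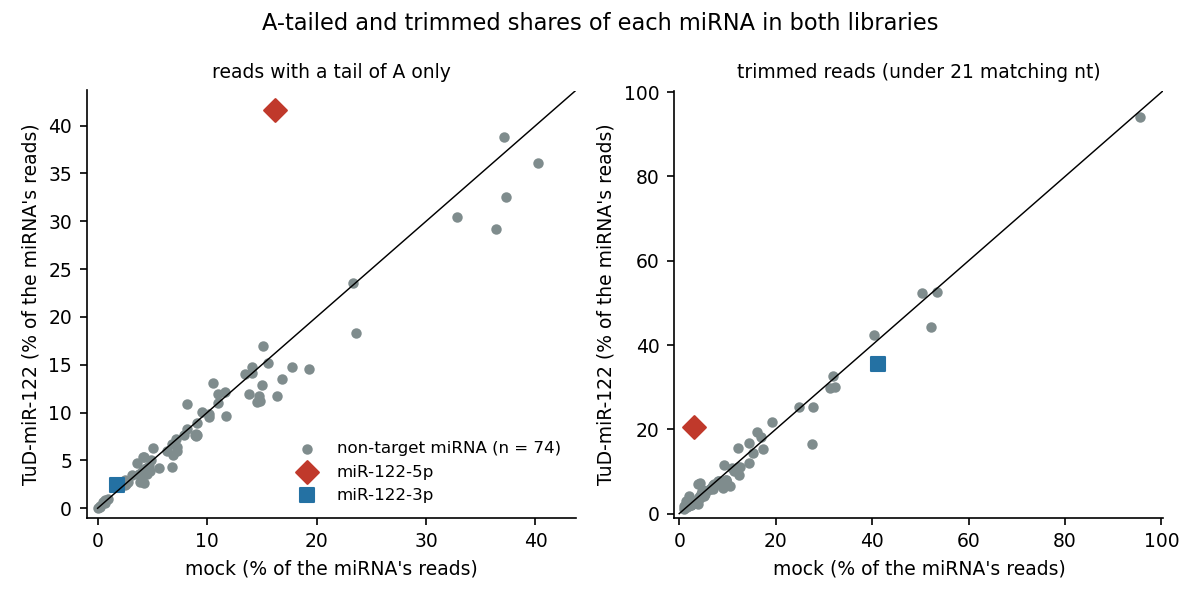
Share of each miRNA's reads with a tail of A only (left) and share trimmed below 21 matching nt (right), in mock (x axis, %) and TuD-miR-122 (y axis, %). Grey points are the non-target miRNAs that reached 1000 reads in each, the line marks equal shares, and miR-122-5p stands above it at 16.2% and 41.6% for A and at 3.08% and 20.6% for trimming, while miR-122-3p lies near the grey points.

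The read forms below, printed 5′ to 3′ with the tail in capitals, are from some of the non-target miRNAs whose 3′ ends differed most. Only 1 or 2 forms of each are shown, and others could differ as well. The A-tailed form of miR-486-5p, for example, held 7.76% in mock and 10.3% in the decoy library. Among those not shown are miR-101a-3p, with a trimmed share difference of -7.91 points, and miR-92a-3p, with a tailed share difference of -6.56 points. In miR-23b-3p, from the cluster of miR-23b, miR-27b and miR-24, the form with a final U held 45.1% of reads in mock and 33.6% in the decoy library, and the 22-nt form held 23.0% and 32.4%.
miR-23b-3p with U: aucacauugccagggauuaccacU
miR-23b-3p without tail: aucacauugccagggauuacca
In miR-486-5p the form with U held 25.7% in mock and 19.4% in the decoy library, and the 21-nt form held 18.4% and 26.2%.
miR-486-5p with U: uccuguacugagcugccccgagU
miR-486-5p of 21 nt: uccuguacugagcugccccga
In miR-193a-3p the A-tailed form held 22.3% in mock and 17.3% in the decoy library, and the whole form 42.2% and 46.8%. This miRNA had the largest fall in A share, from 36.4% to 29.2%.
miR-193a-3p with A: aacuggccuacaaagucccagA
miR-193a-3p whole: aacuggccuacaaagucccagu
In miR-22-5p, whose A share was 23.6% in mock and 18.3% in the decoy library, the form with A held 22.9% and 17.2%.
miR-22-5p with A: aguucuucaguggcaagcuuuaA
In miR-203-3p, the 1 miRNA above the 5-point limit for U, the form with U held 13.5% in mock and 17.7% in the decoy library.
miR-203-3p with U: gugaaauguuuaggaccacuagU
In miR-126a-5p the 20-nt form held 21.8% in mock and 11.5% in the decoy library, and the 21-nt form 53.5% and 61.2%, which set its trimmed share to 27.6% and 16.5%.
miR-126a-5p of 20 nt: cauuauuacuuuugguacgc
miR-126a-5p of 21 nt: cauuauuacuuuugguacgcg

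Some of the upward differences included reads with a single departing letter inside the miRNA. In miR-19b-3p and miR-19a-3p, members of the miR-17-92 cluster that share a seed, the form printed here matches the precursor for 18 nt, departs from it at 1 letter and matches it again to the end. It was therefore counted as trimmed and as carrying a mixed tail.
miR-19b-3p, departing form: ugugcaaauccaugcaaaCCUGA
miR-19b-3p, whole form: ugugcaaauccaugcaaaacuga
It held 1.41% of miR-19b-3p reads in mock and 3.50% in the decoy library, and the matching form of miR-19a-3p held 0.666% and 3.05%. In miR-451a-5p, an erythroid miRNA, such a form held 0.402% and 1.91%.
miR-451a-5p, departing form: aaaccguuaccauuacugCGUUU
The trimmed shares of these 3 miRNAs (2.13% in mock and 4.13% in the decoy library for miR-451a-5p) thus hold reads that match the precursor again to its end.

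Some miRNAs without a rule-passing difference also had shifts between neighbouring whole forms. miR-21a-5p, the most abundant non-target miRNA, had its 22-nt form at 47.4% in mock and 53.2% in the decoy library and its 23-nt form at 34.9% and 28.3%.
miR-21a-5p of 22 nt: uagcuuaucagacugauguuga
miR-21a-5p of 23 nt: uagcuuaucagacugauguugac
In the far less abundant miR-223-3p the 23-nt form held 36.9% in mock and 24.5% in the decoy library, and the 22-nt form 21.6% and 29.7%. It had the largest downward difference in mean matching length among the non-target miRNAs.
miR-223-3p of 23 nt: ugucaguuugucaaauaccccaa
miR-223-3p of 22 nt: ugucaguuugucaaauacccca

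let-7 family members, which this decoy does not target and which restrain growth genes, also had lower A shares. The A share was 17.3% in mock and 11.7% in the decoy library for let-7g-5p, 23.5% and 17.03% for let-7b-5p, 17.5% and 13.1% for let-7c-5p, and 13.8% and 10.2% for let-7a-5p. It was 11.96% and 8.84% for let-7f-5p, 24.6% and 21.1% for let-7i-5p and 14.4% and 11.98% for let-7d-5p. miR-98-5p was at 7.37% and 6.66%, and let-7e-5p was the exception at 9.27% and 9.96%. Levels moved little: the guide strands of the family, summed, were at 1.01 times mock (1.01 to 1.02), with members between 0.848 (let-7d-5p) and 1.58 (let-7e-5p). let-7e-5p and miR-98-5p are close in sequence to the abundant let-7a-5p and are uncertain.

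The levels of most other miRNAs were close in the libraries. Of the 225 non-target miRNAs compared, 180 (80%) lay within 2-fold, with a median log2 ratio of -0.003. The share within 2-fold was 69.9% of the 113 with under 1000 reads over both libraries. It was 86.8% of the 76 with 1000 to under 10000 reads and 97.2% of the 36 with 10000 or more. The class under 1000 reads also held most of the compared Dlk1-Dio3 arms and the higher miRNAs of the pancreas list, described below. The part that depth had in these shares was not tested. By the 2-fold rule, which asks that the counting interval of the ratio lie wholly above 2 or below 0.5, 31 miRNAs (13.8% of those compared) were higher in the decoy library and 10 (4.44%) lower. The minimum of 100 reads over both libraries admits miRNAs that are abundant in only 1 of them. With 100 reads required in mock alone, a setting added after seeing the data, 6 of 176 miRNAs (3.41%) were higher and 10 (5.68%) lower. Liver is a mixture of cells, so a lower value may stand for fewer cells of a type or less RNA per cell, and these cannot be told apart.

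**Figure D3:**
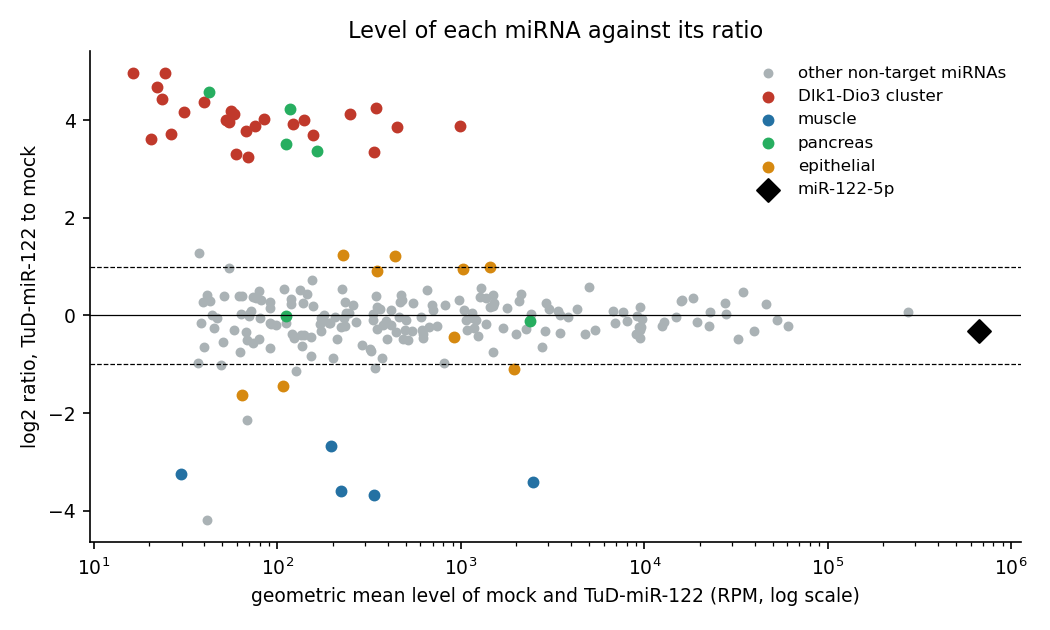
Geometric mean level of each compared miRNA (x axis, RPM, log scale) against its log2 ratio of TuD-miR-122 to mock (y axis), with 4 lists in colour and dashed lines at 2-fold. The abundant miRNAs at the right lie between the dashed lines, and most Dlk1-Dio3, pancreas and muscle miRNAs stand outside them at lower levels.

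Hepatocyte miRNAs other than miR-122 lay mostly below mock, by less than 2-fold. Of the 18 measured members of that list, 0 were higher and 1 lower by the rule, against 13.8% and 4.44% of all, with a median ratio of 0.835 and 15 of the 18 below 1. miR-194-5p was at 0.865 of mock, miR-101b-3p at 0.941, miR-192-5p at 0.800 and miR-101a-3p at 0.867. Lower values were those of miR-107-3p at 0.595 and miR-378a-5p at 0.550 (0.485 to 0.623). The members above 1 were miR-22-3p (1.24), miR-365-3p (1.16) and miR-33-5p (1.36). The member past the rule belonged to miR-802, a miRNA tied to glucose metabolism. Its 3p arm had 196 reads in mock, 47 in the decoy library and 24 in the let-7 decoy library, a ratio to mock of 0.227 (0.162 to 0.314). Its more abundant 5p arm had 1558, 835 and 98 reads, a ratio of 0.508 (0.467 to 0.553) that did not pass. Thus both decoy libraries were below mock for both arms.

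Markers of the other liver cells differed by less than the rule asks. Immune miRNAs had a median ratio of 1.02 over 10 members, with miR-146a-5p at 1.0002, miR-142a-3p at 0.905 and miR-223-3p at 0.743. The 2 arms of endothelial miR-126a were at 1.28 (3p) and 1.06 (5p). Stromal and stellate cell miRNAs had a median of 1.16 over 10 members. Erythroid miRNAs were all above 1, with a median of 1.45 over 4 arms: miR-451a-5p at 1.39, miR-144-3p at 1.50, miR-144-5p at 1.43 and miR-486-5p at 1.47. None of these 4 passed the rule, and their summed level was 34654 RPM in mock and 48718 RPM in the decoy library.

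Families that share a seed, and so are read by the same target sites, are given by their sum. For the seeds named next the sum lay between 0.738 and 1.06 times mock. The miR-29 family, which restrains collagen genes, is printed here because its members parted.
miR-29a-3p: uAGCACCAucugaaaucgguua
miR-29b-3p: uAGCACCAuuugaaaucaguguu
miR-29c-3p: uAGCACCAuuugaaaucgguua
miR-29a-3p and miR-29c-3p were at 1.18 and 1.19 times mock and miR-29b-3p was at 0.715, whereas the seed as a whole was at 1.01 (1.01 to 1.02). The miR-26 seed was at 1.01, the seed of miR-15 and miR-16 at 1.06, that of miR-30 at 0.915, that of miR-101 at 0.918 and that of miR-148 and miR-152 at 0.872. The miR-17-92 cluster and its paralogs, which act on cell growth, had a median ratio of 0.818 over 10 members with 0 past the rule. Within it the miR-19 seed was at 0.738 and the seed of miR-17, miR-20a, miR-93 and miR-106b at 0.808. None of these families had a member past the 2-fold rule. Seeds further from mock were that of miR-1a and miR-206 at 0.0969 and that of miR-379-3p and miR-411-3p at 18.1. So were that of miR-200a and miR-141 at 2.05 and that of miR-200b, miR-200c and miR-429 at 1.98.

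**Figure D4:**
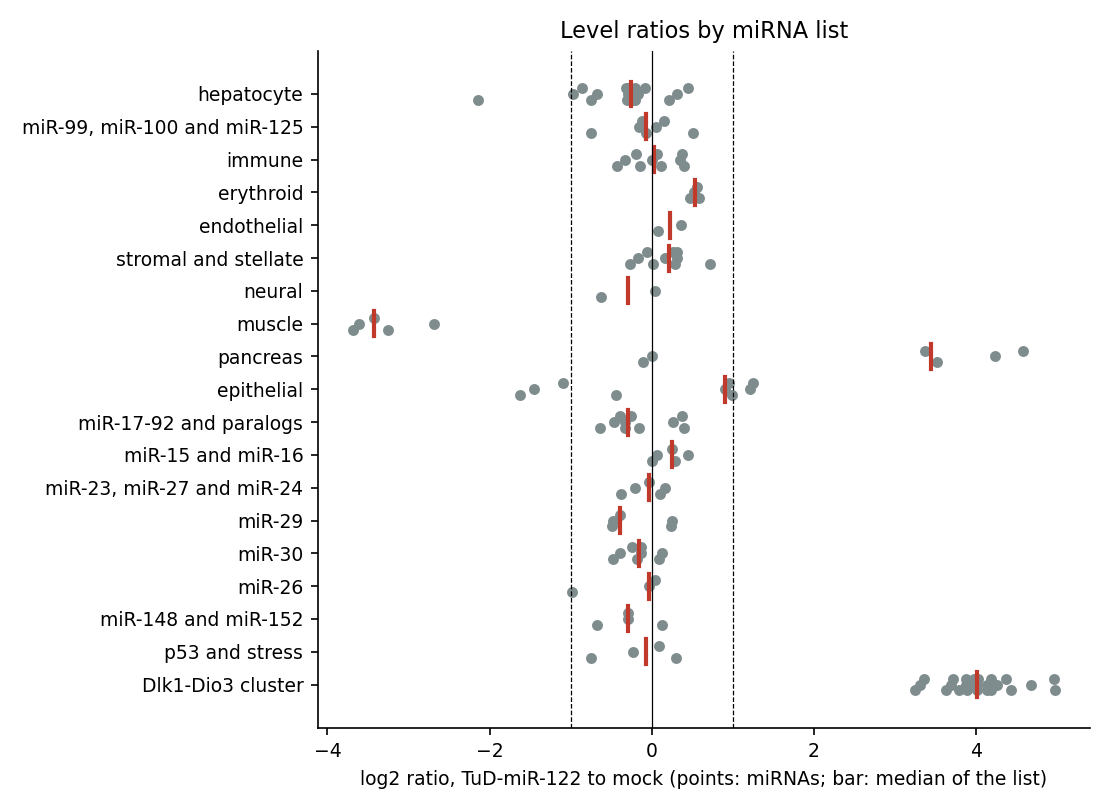
log2 ratio of TuD-miR-122 to mock (x axis) for each compared miRNA of 19 lists (points, spread vertically only to separate them), with the median of each list as a red bar and dashed lines at 2-fold. The Dlk1-Dio3 list has its median at 4.01, the pancreas list at 3.45 and the muscle list at -3.42, while the other lists have medians within 2-fold.

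The imprinted Dlk1-Dio3 cluster supplied 25 of the 31 higher miRNAs. This cluster on the maternal copy of chromosome 12 encodes many miRNA precursors in a row and is known for activity in the embryo, in neurons and in endocrine cells and for low activity in adult liver. The region searched (109563692 to 109747960) holds 59 precursors, and 49 of their arms were detected. The 25 arms with at least 100 reads, from 18 precursors, passed the rule, against 13.8% of all miRNAs compared. That count is no measure of how uniform the cluster was, since 21 of the 25 had under 100 reads in mock and met the minimum only through the decoy library. The 4 arms that had 100 reads in mock alone also passed. Of the 24 arms with too few reads to compare, 22 had a ratio above 1, from 4.17 to 40.8 on few reads, and the other 2 had 0 reads in mock. All 49 arms of the cluster together of the cluster together had 987 RPM in mock and 14581 RPM in the decoy library, a ratio of 14.8 (13.98 to 15.6).

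The 4 arms described next are those with 100 reads in mock alone. miR-136-5p, the arm with the most reads, had 353 reads in mock, 5502 in the decoy library and 407 in the let-7 decoy library, a ratio to mock of 14.8 (13.3 to 16.5). miR-379-5p had 161, 2485 and 137 reads, and a ratio of 14.6 (12.5 to 17.3). miR-127-3p, known for restraining the retrotransposon-derived gene Rtl1 from the other strand, had 108, 2170 and 220 reads, and a ratio of 19.1 (15.7 to 23.3). miR-541-5p, near the far end, had 145, 1564 and 171 reads, and a ratio of 10.2 (8.62 to 12.2). Mock was thus the lower library in each, and the let-7 decoy library lay between mock and the decoy library once scaled (256, 3788 and 835 RPM for miR-136-5p in the order mock, the decoy library and the let-7 decoy library). Against the let-7 decoy library the ratios were smaller, at 4.54 for miR-136-5p, 6.09 for miR-379-5p, 3.31 for miR-127-3p and 3.07 for miR-541-5p.

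The lowest ratio of the 25 compared arms was 9.51, for miR-369-3p (6.57 to 14.2), and the largest 31.3, for miR-154-3p, on only 4 and 132 reads and with an interval of 11.9 to 117. The 5p and 3p ratios were 16.1 and 15.7 for miR-411, 16.3 and 18.2 for miR-434, 13.1 and 19.1 for miR-127, and 14.8 and 20.6 for miR-136. They lay further apart for miR-299a (9.89 and 16.1), miR-379 (14.6 and 25.6) and miR-154 (12.3 and 31.3), with overlapping intervals in each of the 3. With inserts read once left out, miR-379-3p moved to 71.6 and miR-154-3p to 58.3, each on 2 reads in mock. miR-379-3p and miR-411-3p, whose shared seed is printed above, had 25 reads together in mock and 476 in the decoy library. The ratio of miR-665-3p (31.1, on 6 and 197 reads) is uncertain, because most of its reads were tailed. The arms with 0 reads in mock were miR-370-3p and miR-376a-5p: miR-370-3p had 0 reads in mock and 21 in the decoy library and miR-376a-5p 0 and 12.

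**Figure D5:**
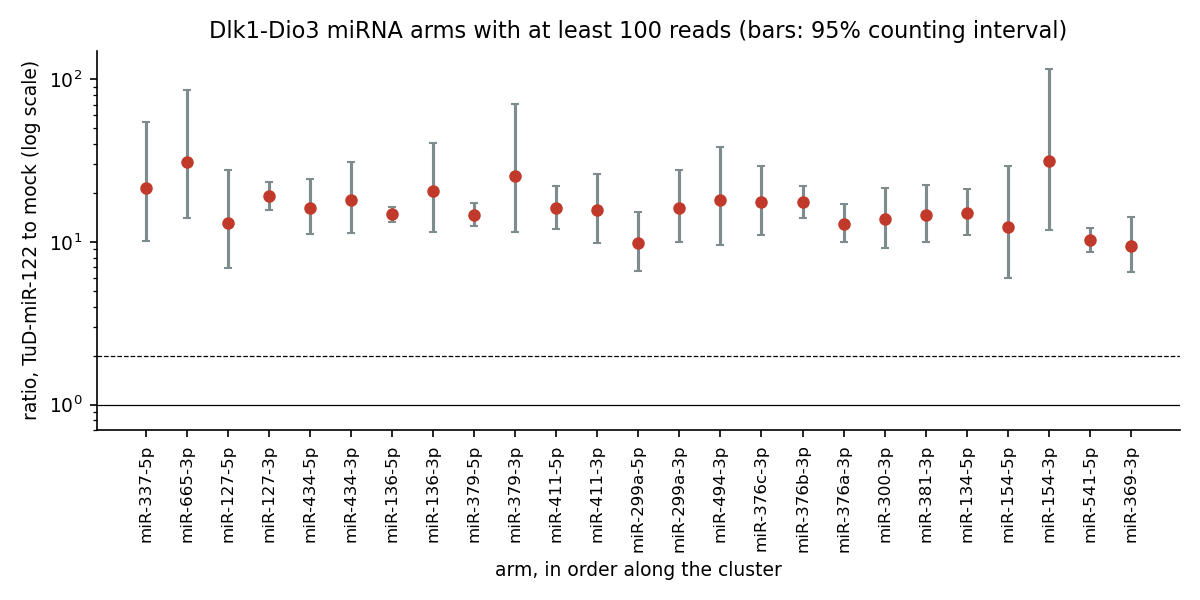
Ratio of TuD-miR-122 to mock (y axis, log scale) for the 25 Dlk1-Dio3 arms with at least 100 reads, in their order along the cluster (x axis), with 95% counting intervals as bars. All intervals lie above the dashed line at 2, and the ratios run from 9.51 to 31.3.

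Of the pancreas list, 4 of 6 measured members were higher, against 13.8% of all miRNAs compared. All 4 had under 100 reads in mock and met the read minimum only through the decoy library, so the count over the list carries little, and their own values are given. miR-216a-5p had 37 reads in mock, 732 in the decoy library and 14 in the let-7 decoy library, a ratio to mock of 18.8 (13.5 to 26.9), and miR-216b-5p had 12, 302 and 4 reads, a ratio of 23.9. miR-217-5p had 45, 544 and 11 reads, a ratio of 11.5 (8.45 to 15.9). These 3 precursors neighbour each other on chromosome 11, from 28746191 to 28763835 of the plus strand, and Mir216a and Mir217 lie in introns of the noncoding gene Gm12082. miR-375-3p, a miRNA of islet and other endocrine cells, had 70, 764 and 50 reads, a ratio of 10.4 (8.10 to 13.4). miR-216a-5p was at 26.9 RPM in mock and 28.7 RPM in the let-7 decoy library, whereas miR-375-3p was at 50.8 and 102.5 RPM. Against the let-7 decoy library their ratios were 17.6 and 5.13. The remaining members, both arms of miR-7a, were at 0.924 (5p) and 0.998 (3p). The summed level of the list, most of it miR-7a-5p, was 2690 RPM in mock and 3997 RPM in the decoy library. The part that pancreas tissue had in this library was not tested.

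The miRNAs of the 2 miR-200 loci, which hold epithelial cells together by restraining Zeb1 and Zeb2, lay near the 2-fold limit. miR-200c-3p (204 reads in mock and 510 in the decoy library, ratio 2.37, 2.01 to 2.80) and miR-141-3p (395 and 966 reads, ratio 2.32, 2.06 to 2.61) passed the rule. The call of miR-200c-3p ended when scaled to all reads (lower limit 1.988), with the TMM factor (1.954) and with 1 mismatch allowed (1.978), and that of miR-141-3p ended against the let-7 decoy library (1.939). Both precursors lie on chromosome 6. The members of the other locus did not pass: miR-200a-3p was at 1.98 (1.86 to 2.11), miR-200b-3p at 1.93 and miR-429-3p at 1.88. By seed, miR-200a and miR-141 together were at 2.05 (1.94 to 2.17), and miR-200b, miR-200c and miR-429 at 1.98 (1.86 to 2.10). Both seeds were thus near 2-fold above mock whichever locus they came from.

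Other epithelial miRNAs pointed the other way. miR-205-5p had 155 reads in mock, 53 in the decoy library and 3 in the let-7 decoy library, a ratio to mock of 0.324 (0.233 to 0.446). miR-31-5p had 3903, 1925 and 1291 reads, a ratio of 0.468 (0.443 to 0.494), and miR-31-3p had 244, 94 and 55 reads, a ratio of 0.365. Scaled to all miRNA reads, both calls of miR-31 ended (upper limits 0.532 and 0.501), and so did that of miR-31-5p with 1 mismatch allowed (0.505) and both against the let-7 decoy library (0.538 and 0.816). miR-203-3p was at 0.737 and did not pass. The whole epithelial list had 2 of 9 members higher and 3 lower, against 13.8% and 4.44% of all, a median of 1.88 and a summed level of 6656 RPM in mock and 7199 RPM in the decoy library. The list thus held groups of opposite direction, the miR-200 miRNAs above mock and those of stratified epithelia below.

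Muscle miRNAs were the main group below mock, with 5 of 5 measured members lower, against 4.44% of all miRNAs compared. Of these, miR-133a-5p and miR-133b-3p had under 100 reads in the decoy library. miR-1a-3p, a miRNA of heart and skeletal muscle, had 11080 reads in mock, 1090 in the decoy library and 83 in the let-7 decoy library, a ratio to mock of 0.0933 (0.0876 to 0.0993). miR-133a-3p had 1657, 136 and 17 reads, a ratio of 0.0778, and miR-133a-5p had 127, 14 and 0 reads, a ratio of 0.105. miR-206-3p, found in skeletal but not in heart muscle, had 681, 112 and 4 reads, a ratio of 0.156 (0.127 to 0.191). The entry miR-133b-3p (1061 and 92 reads) is uncertain, since most of its reads were tailed and may belong to the nearly identical miR-133a-3p. With starts allowed within 2 nt it had 159 and 17 reads, a ratio of 0.101.

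Mock was the high library in all 5, and the decoy library stood above the let-7 decoy library. Set against the let-7 decoy library in place of mock, the direction turned: miR-1a-3p was then 4.41 times the control, miR-133a-3p 2.69 times and miR-206-3p 9.40 times. miR-205-5p turned likewise, at 5.93 times the let-7 decoy library, while miR-31-5p was at 0.501 of it. The summed level of the muscle list was 10635 RPM in mock and 1004 RPM in the decoy library. The part that muscle tissue in the mock sample had in these ratios was not tested. The remaining lower entry, miR-378d-5p (243 and 14 reads, ratio 0.0546), is uncertain because its sequence is nearly that of the abundant miR-378a-3p.

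The balance of the arms of a precursor was kept in most cases. Over 45 precursors with enough reads on both arms, the 5p to 3p ratio in the decoy library was a median 0.954 of that in mock, and 43 of the 45 lay within 2-fold. For Mir122 the 5p arm had 145 reads for each 3p read in mock and 82.7 in the decoy library. The change was to 0.571 (0.554 to 0.588, log-odds interval). These counts hold only reads at the most frequent start of each arm. With starts within 2 nt, the 3p arm had 14278 reads in mock and 22695 in the decoy library. The 5p arm then had 1034425 and 876393, so fewer 5p reads stood against each 3p read in both libraries. Only Mir154 had a lower change than Mir122, at 0.394, on 8 and 4 reads in mock (0.115 to 1.34). The next lowest were Mir379 (0.572), Mir29a (0.605) and Mir299a (0.613). At the other end stood Mir802 (2.24, 1.61 to 3.11), Mir26b (1.93), Mir574 (1.62), Mir99a (1.55) and Mir423 (1.49). The change of Mir122, itself 1 of the 45, was thus at their low end. The reads of Mir154 in mock were too few to place it above or below Mir122. 5′ starts differed by less than 5 points: over 74 non-target miRNAs the share of reads starting elsewhere differed by a median of 0.28 points, and by -4.46 to 2.76 points. The lowest was miR-142a-5p, with 36.0% in mock and 31.6% in the decoy library. Some small shares grew many times over, such as 0.193% and 1.42% for miR-26a-5p, 0.0577% and 1.44% for miR-26b-5p and 0.194% and 1.36% for miR-148a-3p, mostly 1 nt later.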

How the data were processed

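Small RNA reads of mouse liver were measured in 3 libraries, 1 per group, and groups were taken from the submitters' labels. Per the labels' protocols, RNA was extracted with miRvana, RNA of 18 to 30 nt was gel-purified and libraries followed a published small RNA protocol. The authors deposited, per library, each distinct insert with its read count. Adapter removal, filters, aligner and build were not given in the sources used here. No molecular identifiers are recorded, so PCR copies count as reads and all limits given are for counting error. With 1 library per group, no difference between conditions has a replicate check.

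Inserts were matched to the 1174 miRNA precursors of GENCODE vM21 (GRCm38) with at least 16 identical nt from an arm's 5′ end and a tail of at most 5 nt. The 5′ end was the most frequent start, in place of an annotated end, for arms with at least 10 untailed reads. Arms identical over 22 nt were merged, as were the copies of miR-92a, miR-128 and miR-219a by mature name. Names came from RefSeq by coordinates. let-7j was counted with the let-7 loci. Reads that fitted several arms and were left out were 0.314% of the miRNA reads of mock, 0.334% for the miR-122 decoy library and 0.318% for the let-7 decoy library. These choices were made after the files had been seen. Sequences of miR-122 are not reported here.

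Levels were scaled to miRNA reads outside the miR-122 and let-7 loci. A ratio has an exact conditional-binomial 95% interval, and miRNAs with at least 100 reads over both libraries were called when it lay wholly above 2 or below 0.5. Shares have exact Clopper-Pearson 95% intervals. Their differences were described for miRNAs with at least 1000 reads in each library against a limit of 5 points, with trimmed meaning under 21 matching nt. For trimmed shares, 3 of 74 miRNAs that share 20 nt with another entry were left out. The limit for a count of 0 was 3 reads. The ratio of arms has a log-odds (Woolf) interval.

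Named miRNAs were both miR-122 strands, the most abundant non-target miRNAs, those with the largest ratios past the rule, those with the largest differences in 3′ form or arm ratio, and members of the marker lists. A few read forms were chosen after their values were seen. The members and lists were chosen with earlier results of these data known. Alternatives changed the scale, read minimum, control library, matching rule, tail length and trimming limit. The procedure was tested on simulated data. Python 3.11, SciPy 1.17.1 and, for the TMM factor, edgeR 4.0.16 were used.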

Additional observations from a re-analysis of the deposited data

Results flagged for a closer look

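Reads outside the miRNA arms were not used in the comparisons. Inserts assigned to no arm made up 28.0% of the reads in the TuD-miR-122 library, above the 21.5% in mock, the control. In the TuD-let-7 library they made up 26.9%. What these reads are was not analysed here.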

How the results depend on the processing

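The 8 summary results were recomputed under the alternatives: 42 values moved little, 24 moved and 0 changed direction. Single muscle miRNAs and miR-205-5p did turn with the TuD-let-7 control, as given above. The miR-122-5p ratio to mock, 0.803, was 0.794 scaled to all reads, 0.865 to all miRNA reads, 0.780 with the TMM factor, 0.801 with starts within 2 nt, 0.798 with at least 18 matching nt, 0.794 with 1 mismatch and 0.297 with the TuD-let-7 library as control. The 31 higher miRNAs became 52 with at least 20 reads and 53 with no minimum, but 6 with at least 100 reads in mock alone, a setting added after seeing the data. The 10 lower became 6 with the TuD-let-7 control, of which 1 was shared, against 26 shared of the 31 higher. Scaled to all miRNA reads, 8 of the 10 lower were shared. The tailed difference of miR-122-5p, 28.2 points, was 27.01 against TuD-let-7, 28.0 with at least 18 nt and 25.9 with tails of at most 2 nt. Its A difference, 25.4 points, was 23.7 against TuD-let-7, 25.3 with 1 mismatch, 24.9 with tails of at most 2 nt and 13.2 for 2 or more A. Its trimmed difference, 17.5 points, was 17.1 with at least 18 nt and 4.58 for under 20 nt. The median trimmed difference of the non-target miRNAs, -0.24 points, was -4.80 against TuD-let-7, -0.36 with 1 mismatch and -0.041 for under 20 nt. Their median A difference, -0.22 points, was -0.35 with a lower read minimum. The cause of these shifts was not tested. Scaling to all miRNA reads, or the TuD-let-7 control, moved the median log2 ratio of the non-target miRNAs to 0.10. The ratio of miR-665-3p was 85.4 without inserts read once, on 2 and 180 reads, and those of miR-379-3p and miR-154-3p also moved by over 1.5 times. With 1 library a side, depth limits mainly the miRNAs with few reads in mock, and no setting measures the spread between animals.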
